A study of Astyanax mexicanus with 36 samples.

Results

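The genes plin2, soat2, elovl4a and elovl4b, 4 of the 27420 genes in the deposited count table, were followed through oocyte growth in the Mexican tetra, Astyanax mexicanus. They were found by their symbols, each of which matched 1 gene. All 4 passed the low-count filter in the main fits, those of each size and that of all 36 libraries. The libraries were made in bulk from total RNA after ribosomal RNA depletion. The oocytes had been taken from right ovaries, and the fish were adults of about 520 days. They belonged to the eyed surface form or to blind cavefish of the Pachón or Molino population. All were labelled as wild type and untreated, and all groups shared these labels and the tissue, ovary. Oocytes were sorted by size into categories labelled 40um, 40_100um, 100_300um and 300um. With 3 libraries per population and category there were 12 groups and 36 libraries. Whether 40um and 300um stand for bounds or midpoints of a range is not stated. Nor is it stated that the replicates are different fish, so a p-value reflects only how far these samples scatter, and that scatter may be technical. The genes were chosen by their measured counts in these same libraries: earlier results had shown them to differ between populations or sizes. Their values below are therefore a description, and no p-value is given for them. Where one of their values is said to pass or lose a threshold, that is description too. It is no evidence that these genes differ.

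Growing fish oocytes store neutral lipid, mostly as triacylglycerol and cholesteryl ester in cytoplasmic droplets, next to the protein yolk. Perilipin 2, encoded by plin2, coats lipid droplets in most cell types and shields them from lipases, and its transcript is also abundant in lipid-laden macrophages and steroid-producing cells. Sterol O-acyltransferase 2, encoded by soat2, joins cholesterol to a fatty acid to make the storage form, cholesteryl ester. In mammals it works mainly in intestine and liver, while its relative SOAT1 is found in most tissues. ELOVL4 enzymes carry out the rate-limiting condensation that lengthens very long chain fatty acids, and are best known from retina, skin, brain and testis, where human ELOVL4 mutations cause a macular dystrophy. Teleosts carry a pair of copies, elovl4a and elovl4b.

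Sequencing depth was modest, the shallowest library holding 2.99 M (mega) and the deepest 9.35 M gene-assigned reads. The share of reads assigned averaged 36.4% in the smallest category and then 67.7%, 64.7% and 59.0% in rising order of size. Levels are counts per M reads (CPM) after TMM scaling, a correction for library composition. They are not divided by gene length, so levels are compared between samples and not between genes. Oocyte markers (14 genes) summed to between 2036 and 16849 CPM at 40um and between 3546 and 12647 CPM at the larger sizes. Their means went both ways. They were lower at 40um for gdf9 (15.4 against 57.6 CPM), ddx4 (197 against 643 CPM), bmp15, buc, org, mos and lhx8a. They were higher there for zar1 (1851 against 1011 CPM), zar1l, zp2l1, npm2a, npm2b, dazl and figla. The sums therefore do not measure the share of oocyte RNA. The 40um libraries also held other ovarian cells: markers of macrophages and granulocytes (25 genes) summed to between 334 and 6303 CPM there, against 23.6 to 414 CPM at the larger sizes. Markers of granulosa cells (16 genes), the follicle cells around the oocyte, summed to between 156 and 2373 CPM at 40um and between 6.53 and 192 CPM at the larger sizes. The library numbers run in 3 separate series: the smallest category, the largest, and the pair between them. A size step into or out of the smallest or largest category therefore cannot be told apart from a step between series. In bulk libraries, fewer cells of a type and less RNA per cell cannot be told apart.

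The acyltransferase gene soat2 was present in every surface and Pachón library and had no read in 11 of the 12 Molino libraries. In the Molino libraries, soat2 stood at 0.384 CPM in library 1 at 40um, from 2 reads, and at 0 in libraries 2 and 3. All 9 Molino libraries of the 3 larger sizes had 0 reads of soat2. A count of 0 over those 9 libraries allows a level of up to 0.0451 CPM, taking 3 reads as the limit and counting error only. Whether Molino reads of soat2 fail to map or to be assigned, through a sequence or gene model difference, was not tested, so the 0 reads and the bounds below describe assigned reads.

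Pachón libraries had the highest levels of soat2 at the larger sizes. At 40_100um they stood at 11.6, 10.8 and 8.61 CPM, against 0.791, 3.29 and 1.30 CPM in surface fish. At 100_300um the Pachón libraries stood at 9.67, 5.80 and 5.83 CPM and the surface libraries at 2.06, 2.14 and 0.615 CPM. Every Pachón library lay above every surface library at both sizes. At 300um the Pachón values were 6.87, 7.82 and 8.18 CPM and the surface values 0.396, 1.84 and 0.785 CPM, again without overlap. At 40um the groups overlapped, with 5.68, 6.59 and 2.64 CPM in Pachón and 6.67, 0.528 and 3.34 CPM in surface fish.

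The soat2 log2 fold change of Pachón over surface fish was 0.51 (SE 0.84) at 40um, 2.44 (SE 0.52) at 40_100um, 2.11 (SE 0.57) at 100_300um and 2.93 (SE 0.54) at 300um. Leaving out surface library 2 raised the log2 value to 3.17 at 40_100um and to 3.65 at 300um. The 100_300um value no longer passed the threshold of an adjusted p of 0.05 (edgeR's quasi-likelihood test, all genes tested) when any of 5 libraries was left out, all those compared other than surface library 1. Against Molino no fitted fold is given. The bounds set 3 reads over the Molino group and take the reads of the other group as counted, without their counting error. On that basis soat2 in surface fish was at least 12.4-fold higher at 40_100um, 12.9-fold at 100_300um and 6.97-fold at 300um. Pooled over these sizes it was at least 32.6-fold higher, from 101 reads. Surface library 2 held 27 of the 42 surface reads at 40_100um and 13 of the 21 at 300um, and without it the bounds there were 6.92-fold and 4.0-fold. In Pachón the same bounds were at least 69.7-fold, 60.2-fold and 53.3-fold, and pooled at least 181-fold, from 568 reads. With a Molino library left out, which leaves fewer reads behind the limit, the bounds were as low as 7.85-fold, 7.98-fold and 4.14-fold for surface fish and 44.2-fold, 37.2-fold and 31.7-fold for Pachón. At 40um the ratio of surface fish to Molino was 24.5 (95% counting interval 6.49 to 207, from 60 and 2 reads), and that of Pachón to Molino was 30.6 (95% counting interval 7.98 to 261, from 44 and 2 reads). Both Molino reads lay in library 1: without it the bounds were at least 9.39-fold and 11.7-fold. The surface ratio was 13.1 without surface library 1.

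Ordered by group mean, soat2 was highest in Pachón at 40_100um, at 10.4 ± 1.57 CPM (SD, n = 3), with no overlap with the next group. Pachón followed at 300um (7.63 ± 0.676 CPM), 100_300um (7.10 ± 2.22 CPM) and 40um (4.97 ± 2.07 CPM). Surface fish came next in order of rising size, with means of 3.51, 1.79, 1.60 and 1.01 CPM, and neighbours in the order among these groups overlapped. No surface library at 300um overlapped the Molino group below it, at 0.128 CPM for 40um, but the gap was slight. Surface library 1 at 300um stood at 0.396 CPM from 3 reads, and Molino library 1 at 40um at 0.384 CPM from 2 reads. Over the 9 Pachón libraries of the larger sizes soat2 varied 2.01-fold, against 8.31-fold over the 9 surface libraries, whose reads per library were few (3 to 27). The related acyltransferase soat1 has 2 annotated copies, and neither passed the threshold between populations at any size where it passed the low-count filter. The copy ENSAMXG00000039298 had few reads. At 40_100um its means were 1.11, 1.04 and 0.245 CPM in surface fish, Pachón and Molino, from 26, 19 and 5 reads. Their levels at the larger sizes lay between 1.94 and 14.5 CPM for the copy ENSAMXG00000013993 and between 0 and 3.53 CPM for the copy ENSAMXG00000039298. Reads that map to several places were not assigned to genes, so near-identical copies could lose reads.

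**Figure D1:**
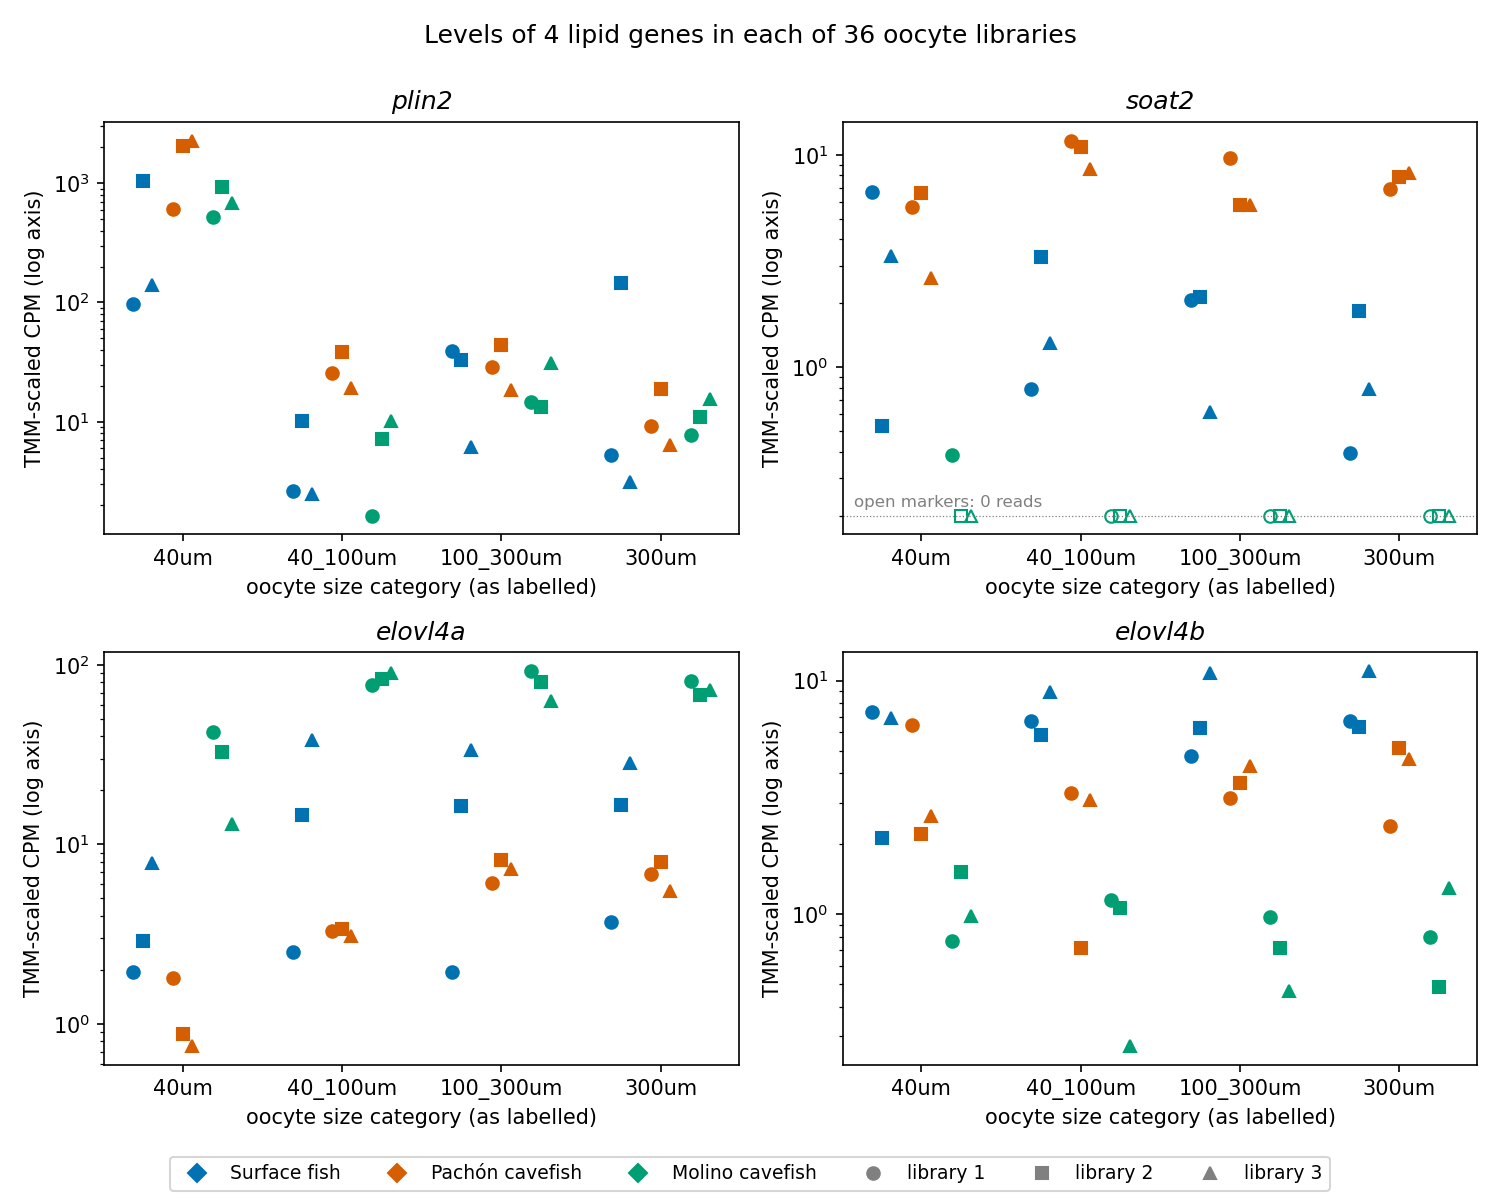
Level of each gene in CPM after TMM scaling (log axis) in each of the 36 libraries, by labelled size category, with colour for the population and marker shape for the library number within its group. Filled soat2 markers for Molino are limited to 1 library at 40um, at 0.384 CPM, and the open markers stand for libraries with 0 reads; plin2 lies between 96.7 and 2273 CPM at 40um, and Molino elovl4a lies above the other populations at every size.

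The group mean of plin2 was highest at 40um in all 3 populations, though surface library 2 at 300um (145 CPM) exceeded 2 of the 3 surface libraries at 40um. At 40um it stood at 96.7, 1039 and 140 CPM in surface fish, 610, 2052 and 2273 CPM in Pachón and 521, 937 and 683 CPM in Molino. At 40_100um the values were 2.64, 10.2 and 2.46 CPM in surface fish, 25.7, 38.8 and 19.3 CPM in Pachón and 1.63, 7.11 and 10.1 CPM in Molino. In each population the lowest 40um library lay above the highest 40_100um library, and at 40_100um every Pachón library lay above every library of the other populations.

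The log2 fold change of plin2 from 40um to 40_100um was -6.36 (SE 1.17) in surface fish, -5.88 (SE 1.12) in Pachón and -6.81 (SE 1.19) in Molino. In surface fish it was -4.29 without library 2 at 40um and -7.36 without library 2 at 40_100um. The difference of this step from surface fish was 0.48 (SE 1.33, log2) for Pachón and -0.45 (SE 1.39, log2) for Molino. Markers of other cells moved with this step. The macrophage and granulocyte markers at 40um summed to 683, 6303 and 1081 CPM in surface fish, 334, 706 and 2825 CPM in Pachón and 1878, 3341 and 2706 CPM in Molino. The granulosa markers there summed to 156, 677 and 775 CPM in surface fish, 1130, 2373 and 2328 CPM in Pachón and 335, 559 and 1748 CPM in Molino. At 40um the macrophage and granulocyte sums ranked the 3 libraries of each population in the same order as plin2. Between populations the order differed. The sums of 2 Pachón libraries lay below every Molino library, though the group mean of plin2 at 40um was higher in Pachón. The granulosa sum was lowest in library 1 of each population, where plin2 was also lowest. Its highest value in surface fish and in Molino was in library 3, where plin2 was not highest. At 40_100um both lists were lower in every population, between 23.6 and 102 CPM and between 6.53 and 71.8 CPM. The macrophage and granulocyte sums there were 91.4 to 102 CPM in Pachón, 23.6 to 58.8 CPM in surface fish and 41.9 to 62.6 CPM in Molino. The granulosa sums were 60.5 to 71.8, 16.6 to 30.2 and 6.53 to 23.0 CPM in the same order. For both lists, as for plin2, every Pachón library at this size lay above every other library. Adipocyte markers (11 genes) lay between 48.2 and 937 CPM at 40um and between 16.7 and 164 CPM at the larger sizes, with 1 to 5 of the 11 at 0 in a 40um library. The largest means of this list at 40um were those of fabp4a (200 CPM) and PPARG (84.2 CPM), while cidec averaged 16.7 CPM. The highest values of adipoqb and lepb were 0.753 and 0.528 CPM. For lipea the mean was 13.9 CPM at 40um and 17.0 CPM at the larger sizes. Whether the sum comes from adipocytes was not tested. Markers of theca and steroid-producing stroma (5 genes) summed to 19.2 to 483 CPM at 40um and 0.490 to 48.3 CPM at the larger sizes. Those of stroma and smooth muscle (13 genes) summed to 327 to 1846 CPM and 17.5 to 550 CPM. Erythrocyte markers (13 genes) summed to 410 to 5259 CPM and 10.0 to 60.8 CPM. The part of all these cells in the plin2 values was not tested.

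At 100_300um, plin2 stood at 39.3, 33.2 and 6.15 CPM in surface fish, 28.9, 43.7 and 18.5 CPM in Pachón and 14.7, 13.3 and 30.9 CPM in Molino, and the populations overlapped. At 300um the values were 5.28, 145 and 3.14 CPM in surface fish, 9.25, 18.8 and 6.39 CPM in Pachón and 7.79, 10.9 and 15.5 CPM in Molino. Surface library 2 stood apart at 300um: the other surface libraries lay below every library of both cave populations. The same library had a macrophage and granulocyte sum of 414 CPM against 39.1 and 48.5 CPM in the others. Its sum of the adipocyte list, with the limits given above, was 164 CPM against 31.7 and 33.1 CPM.

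Between populations, plin2 in Pachón exceeded surface fish by 2.01 (SE 0.86, log2) at 40um, 2.38 (SE 0.66) at 40_100um and 0.17 (SE 0.62) at 100_300um, and was -2.09 (SE 1.20) against it at 300um. Without surface library 2 the 300um value was 1.41 (SE 0.48, log2), so its direction was set by that library. Likewise the 40um value was 3.82 (SE 0.68, log2) without surface library 2, and the 40_100um value was 3.34 without it. The 40_100um value passed the threshold with all libraries and no longer did when surface library 1 or 3 or Pachón library 2 was left out, with no filter, or in 1 fit of all 36 libraries. At 40_100um the macrophage and granulocyte sums and the granulosa sums were also highest in Pachón, and their part was not tested. For Molino against surface fish the plin2 log2 fold changes were 0.70 (SE 0.83), 0.29 (SE 0.68), -0.49 (SE 0.63) and -2.10 (SE 1.20) in order of size, and without surface library 2 they were 2.54 at 40um and 1.40 at 300um. These comparisons share their surface libraries with those of Pachón. Pachón exceeded Molino by 1.31 (SE 0.84), 2.09 (SE 0.66), 0.65 (SE 0.63) and 0.02 (SE 1.22) on the log2 scale. The value at 40_100um passed the threshold with all libraries, and no longer did when Pachón library 1 or 2 or Molino library 1 or 2 was left out, with no filter, or in 1 fit of all 36 libraries.

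In the order of group means, the 3 groups at 40um led for plin2, with 1645 ± 903 CPM in Pachón, 714 ± 210 CPM in Molino and 425 ± 532 CPM in surface fish (SD, n = 3). Surface fish at 300um came next, at 51.0 ± 81.1 CPM, and the other 8 groups had means from 30.4 CPM (Pachón at 100_300um) to 5.11 CPM (surface fish at 40_100um). Each group overlapped its neighbour in the order. The other perilipins in the table were plin3 and plin6, the latter a perilipin of fish pigment cells. Both were scarce: plin3 stood at 0 to 1.94 CPM at the larger sizes. At 300um, plin6 stood at 1.85, 2.20 and 2.56 CPM in Pachón, against 0.264, 0.424 and 0.785 CPM in surface fish. That difference was 2.15 (SE 0.64, log2; adjusted p = 0.0258, edgeR's quasi-likelihood test) and lost its call when any of 5 of the 6 libraries was left out. At 300um plin6 passed the low-count filter only through Pachón, from 52 reads there, against 10 in surface fish and 3 in Molino. The call is therefore description too.

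**Figure D2:**
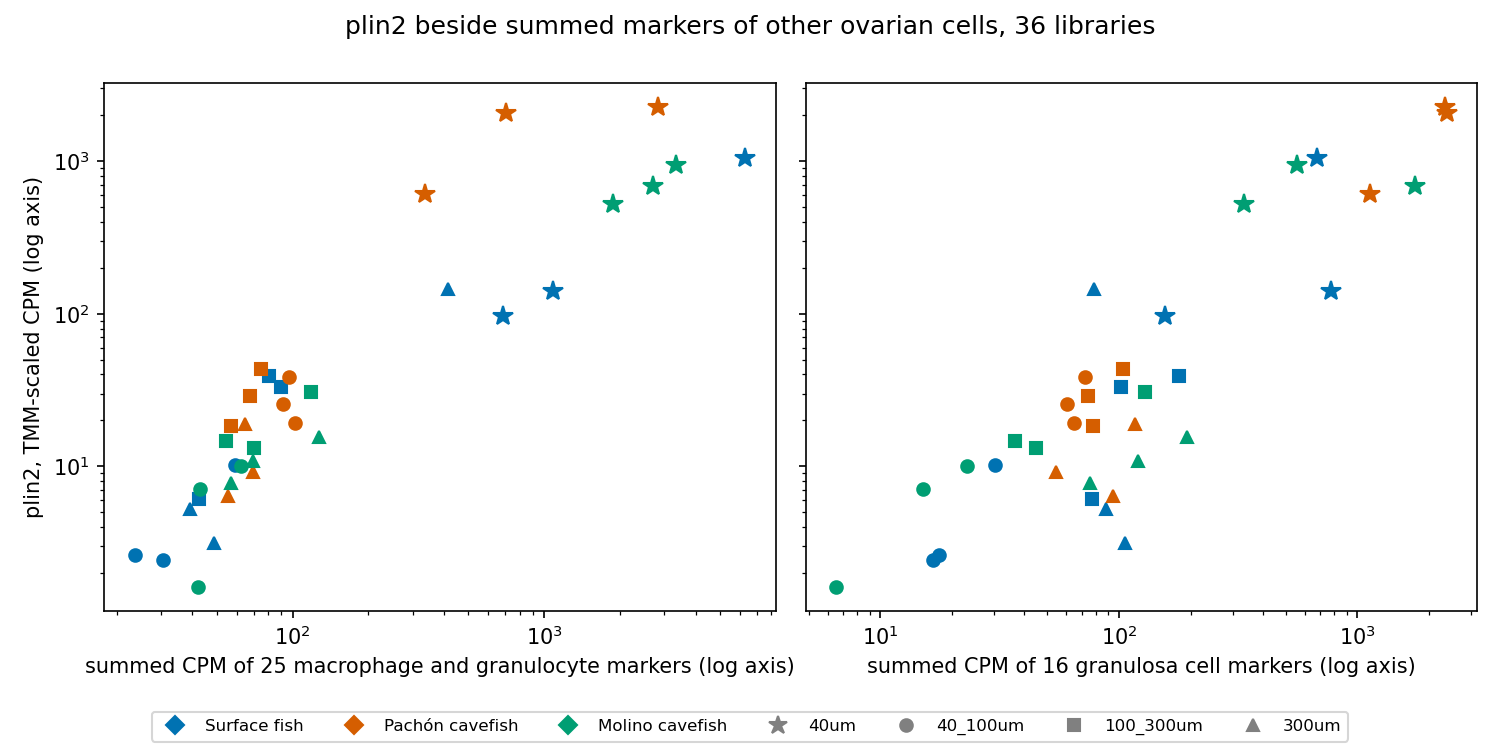
plin2 level in CPM (log axis) against the summed CPM (log axis) of 25 macrophage and granulocyte markers on the left and 16 granulosa cell markers on the right, 1 point per library, with colour for the population and marker shape for the size category. Most libraries at 40um lie at the upper right, but they are not fully apart: surface library 2 at 300um has 145 CPM of plin2 and 414 CPM of macrophage and granulocyte markers, and surface library 1 at 40um has 96.7 CPM of plin2 and 156 CPM of granulosa markers, within the range of larger sizes.

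The elongase elovl4a was highest in Molino at every size. At 40um it stood at 42.5, 32.6 and 13.1 CPM in Molino, 1.95, 2.90 and 7.87 CPM in surface fish and 1.81, 0.878 and 0.753 CPM in Pachón. At 40_100um the values were 77.4, 83.2 and 89.9 CPM in Molino, 2.50, 14.6 and 38.0 CPM in surface fish and 3.31, 3.38 and 3.09 CPM in Pachón. Every Molino library lay above every library of the other populations at both sizes. Pachón lay below every surface library at 40um and within the surface range at 40_100um.

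At 100_300um, elovl4a stood at 92.6, 80.7 and 62.9 CPM in Molino, 1.94, 16.4 and 33.4 CPM in surface fish and 6.07, 8.17 and 7.26 CPM in Pachón. At 300um the values were 81.1, 67.9 and 72.2 CPM in Molino, 3.69, 16.5 and 28.6 CPM in surface fish and 6.87, 7.95 and 5.50 CPM in Pachón. Molino again lay above both other populations without overlap, while Pachón lay between surface library 1 and surface library 2. Surface fish spread far more than the cave populations: over the 9 libraries of the larger sizes elovl4a varied 19.6-fold in surface fish, 2.64-fold in Pachón and 1.47-fold in Molino. In surface fish, library 1 was lowest and library 3 highest at all 4 sizes. Whether equal numbers mean the same fish is not in the labels.

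The log2 fold change of elovl4a in Molino over surface fish was 2.71 (SE 0.66), 2.16 (SE 0.73), 2.14 (SE 0.68) and 2.18 (SE 0.52) in order of size, and in the edgeR fits of each size only the last passed the threshold. DESeq2 and 1 fit of all 36 libraries also called the other 3. The 300um call was lost with no filter, with only the libraries compared, with the replicate block, and when surface library 2 or any Molino library was left out, and the value was 2.92 without surface library 3. At 40_100um and at 100_300um the value passed when surface library 1 or surface library 3 was left out. Pachón was below surface fish, by -1.80 (SE 0.75), -2.59 (SE 0.87), -1.30 (SE 0.72) and -1.25 (SE 0.56) on the log2 scale, and none of these passed by edgeR. DESeq2 called this difference at 40_100um and 300um, and it passed at 40_100um also with library totals and in 1 fit of all 36 libraries. Without surface library 1 it passed at each of the 3 larger sizes. Pachón against Molino gave -4.50 (SE 0.76), -4.75 (SE 0.88), -3.44 (SE 0.74) and -3.43 (SE 0.56), all past the threshold. The call at 40um was lost without Pachón library 2 or Molino library 1 or 2, and that at 100_300um without Pachón library 3. At 40_100um the value lay between -4.81 and -4.67 whichever library was left out.

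By group mean, elovl4a was highest in Molino at 40_100um (83.5 ± 6.28 CPM, SD, n = 3), 100_300um (78.7 ± 15.0 CPM) and 300um (73.7 ± 6.76 CPM). These overlapped each other but not Molino at 40um (29.4 ± 15.0 CPM). Surface fish followed at 40_100um, 100_300um and 300um with means of 18.4, 17.2 and 16.3 CPM, then Pachón at 100_300um and 300um with 7.17 and 6.77 CPM. Surface fish at 40um (4.24 CPM) and Pachón at 40_100um (3.26 CPM) came next, and Pachón at 40um (1.15 ± 0.575 CPM) stood below all without overlap. From 40um to 40_100um, elovl4a was higher by 2.11 (SE 0.75, log2) in surface fish, 1.40 (SE 1.02) in Pachón and 1.5 (SE 0.68) in Molino. The surface value was 1.03 without library 3 at 40_100um and 3.17 without library 3 at 40um, and it lost its call without the former or without library 1 at 40um. Macrophage, granulocyte and granulosa markers were lower at 40_100um in every population, and the part of cell composition in these steps was not tested.

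By group mean the copy elovl4b was highest in surface fish and lowest in Molino, so Molino changed from the highest population for elovl4a to the lowest, and surface fish lay above Pachón for both copies. At 40um it stood at 7.32, 2.11 and 6.88 CPM in surface fish, 6.45, 2.20 and 2.64 CPM in Pachón and 0.769, 1.51 and 0.979 CPM in Molino. At 40_100um the values were 6.72, 5.84 and 8.95 CPM in surface fish, 3.31, 0.711 and 3.09 CPM in Pachón and 1.14, 1.06 and 0.272 CPM in Molino. At 40um every Molino library lay below all others, while Pachón and surface fish overlapped. At 40_100um the surface libraries lay above all others, and Pachón library 2 was within the Molino range.

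At 100_300um, elovl4b stood at 4.73, 6.26 and 10.8 CPM in surface fish, 3.15, 3.65 and 4.29 CPM in Pachón and 0.972, 0.715 and 0.467 CPM in Molino. At 300um the values were 6.73, 6.35 and 11 CPM in surface fish, 2.38, 5.13 and 4.60 CPM in Pachón and 0.795, 0.488 and 1.29 CPM in Molino. The 3 populations did not overlap at either size. The Molino values rest on 2 to 11 reads per library. Surface fish led the order of group means at all 4 sizes, from 8.03 ± 2.58 CPM at 300um to 5.44 ± 2.89 CPM at 40um, Pachón followed with means from 4.04 to 2.37 CPM, and Molino came last with 1.08 to 0.718 CPM. Each group overlapped its neighbour in that order.

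The log2 fold change of elovl4b in Molino over surface fish was -2.40 (SE 0.69), -3.12 (SE 0.62), -3.38 (SE 0.48) and -3.18 (SE 0.49) in order of size. The last 3 passed the threshold and kept it whichever single library was left out. For Pachón over surface fish the values were -0.50 (SE 0.63), -1.68 (SE 0.55), -1.01 (SE 0.42) and -0.99 (SE 0.42). Only the one at 40_100um passed, and it lost the call when any of 5 libraries was left out, all those compared other than surface library 2. Pachón over Molino gave 1.90 (SE 0.70), 1.44 (SE 0.64), 2.37 (SE 0.48) and 2.19 (SE 0.49), of which the last 2 passed. Between sizes, the 9 step values of elovl4b lay between -0.69 (SE 0.56, Pachón, 40um to 40_100um) and 0.63 (SE 0.54, Pachón, 40_100um to 100_300um) on the log2 scale, and none passed the threshold.

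Because both copies are counted in the same library, their ratio does not depend on scaling. The log2 ratio of elovl4a to elovl4b reads, with 0.5 added to each, ranged from -1.86 to 2.08 (median 0.87) over the 12 surface libraries and from -1.77 to 2.12 (median 0.44) over the 12 Pachón libraries. In the 12 Molino libraries it ranged from 3.53 to 8.05, with a median of 6.34, so no Molino library overlapped either other population. The group means in Molino were 4.49 ± 1.05, 6.74 ± 1.14, 6.70 ± 0.22 and 6.39 ± 0.59 in order of size (log2, SD, n = 3). In surface fish they were -0.41 ± 1.26, 0.66 ± 1.83, 0.58 ± 1.60 and 0.63 ± 1.28, and surface library 1 had a ratio below 0 at every size. In Pachón they were -1.5 ± 0.32, 0.71 ± 1.22, 0.95 ± 0.20 and 0.79 ± 0.64, lowest at 40um. The ratio is not compared with 0 as a balance of transcripts, since the gene lengths were not used. The ratio was formed from levels already known to differ and is no separate evidence.

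**Figure D3:**
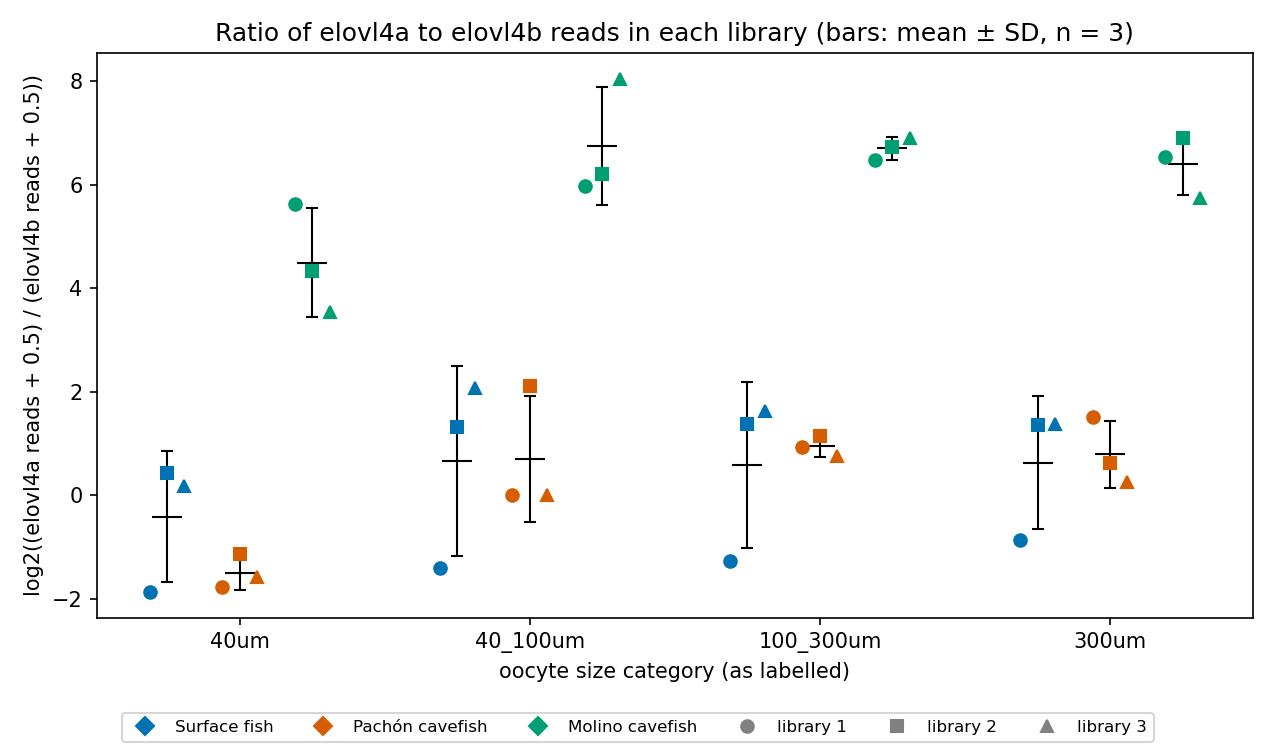
log2 ratio of elovl4a to elovl4b reads (0.5 added to each) in each library by labelled size category, with colour for the population, marker shape for the library number, and black bars for the mean ± SD of 3 libraries. All 12 Molino libraries lie at 3.53 or above, while the surface and Pachón libraries lie at 2.12 or below, and surface library 1 is the lowest surface library at every size.

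Because ELOVL4 is known from the retina, retinal markers were also summed. Markers of photoreceptors and retina (13 genes) summed to between 1.84 and 8.81 CPM over all libraries. In Molino they summed to between 1.91 and 8.81 CPM and in Pachón to between 3.56 and 8.20 CPM. The rod opsin gene rho was at 0 in 30 of the 36 libraries, with a highest value of 0.303 CPM. Over the 13 genes the number of libraries at 0 ran from 1 (crx, highest 3.26 CPM) to 34 (gnat1, highest 0.356 CPM). The highest value of any of them was 5.39 CPM, for nrl.

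Counted over the 4 genes, 0, 3, 1 and 1 passed the threshold between Pachón and surface fish in order of size, where 2.88%, 33.2%, 19.9% and 32.4% of all genes tested did. Between Molino and surface fish 0, 2, 2 and 3 passed, against 0.521%, 29.5%, 14.6% and 16.5% of all genes. At the larger sizes soat2 reached 10 reads in every library of a group only in Pachón. It thus passed the low-count filter at these sizes through Pachón. When only the Molino and surface libraries were fitted, soat2 failed the filter at each larger size. It was not tested there, so its calls for Molino against surface fish were lost without a test. Between Pachón and Molino 1, 3, 3 and 3 passed, against 3.18%, 37.6%, 25% and 34.5%. At 40um, where edgeR called none of the 4 against surface fish, 2 had an unadjusted p under 0.05 for Pachón and 3 for Molino, and DESeq2's Wald test called 0 and 3. In these contrasts the libraries of the groups did not overlap for 1, 3, 2 and 2 of the genes between Pachón and surface fish, where 21.9%, 46.9%, 37.2% and 44.2% of all genes did not. They did not overlap for 3 genes at every size between Molino and surface fish (16.1%, 44.6%, 31.4% and 34.4% of all genes) and for 3 at every size between Pachón and Molino (26.1%, 51.5%, 46.9% and 57.5%). These contrasts are among those that chose the genes, and nothing is read from the counts.

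Over the size steps, plin2 passed the threshold from 40um to 40_100um in all populations and elovl4a in surface fish, where 55%, 57.8% and 59.4% of all genes passed in surface fish, Pachón and Molino. None of the 4 passed from 40_100um to 100_300um, where edgeR called 3.91%, 8.41% and 15.4% of all genes, or from 100_300um to 300um, where it called 0%, 0% and 0.00548%. At an unadjusted p under 0.05 there was 1 gene, plin2 in surface fish from 40_100um to 100_300um (2.33, SE 1.02, log2). DESeq2 called none of the 4 in these steps. Over the 3 steps the libraries of neighbouring sizes did not overlap for 1, 0 and 0 of the 4 genes in surface fish, where 51.6%, 25.5% and 6.54% of all genes did not. In Pachón they did not for 3, 1 and 0 genes, against 58.4%, 40.1% and 22% of all genes, and in Molino for 2, 1 and 0, against 66.8%, 44.5% and 14.2%. With the library number as a block within each population, 8 step values passed in place of 4. Those added were plin2 in surface fish and elovl4a in Pachón from 40_100um to 100_300um, and elovl4a from 40um to 40_100um in Pachón and Molino. No difference of a step from surface fish passed for the 4 genes by edgeR or DESeq2, where edgeR called 7.13%, 0.011% and 0% of all genes for Pachón and 3.57%, 0% and 0% for Molino. Lack of a call does not show equal steps: plin2 in Pachón differed by -2.21 (SE 1.37) and -2.37 (SE 1.34, log2) in the last 2 steps. With 0 reads of soat2 in Molino at the 3 larger sizes, its last 2 steps there and their differences from surface fish could not be called. There was 1 value with an unadjusted p under 0.05, the difference of soat2 between Pachón and surface fish in the first step (2.05, SE 0.97, log2).

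The rest of the elongase family was tested as background to the elovl4 copies. Of 16 elongase symbols sought, 10 were in the table, 8 of them besides the elovl4 copies, and 6 of those were tested at each larger size. At these sizes 33.2%, 19.9% and 32.4% of all genes passed for Pachón against surface fish, and 29.5%, 14.6% and 16.5% for Molino. These shares are the background for this and every list count below. From the lists other than elongases and perilipins, genes were named only among calls whose groups did not overlap. Their lack of overlap was thus set by that choice. Over all genes, libraries did not overlap for 46.9%, 37.2% and 44.2% in Pachón against surface fish at these sizes. In Molino against surface fish the shares were 44.6%, 31.4% and 34.4%. For Pachón against surface fish 3, 2 and 2 of the 6 passed at 40_100um, 100_300um and 300um, all lower, with median log2 fold changes of -0.43, -0.19 and -0.24 over the 6. Between Molino and surface fish edgeR called 0 of the 6 at each of the 4 sizes, with 0, 0, 1 and 0 at an unadjusted p under 0.05 in order of size, and DESeq2 also called 0.

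The gene elovl5, whose product lengthens polyunsaturated fatty acids, stood at 11.8, 8.71 and 10.6 CPM in Pachón at 40_100um, against 18.3, 17.2 and 18.2 CPM in surface fish and 20.4, 22.4 and 24.5 CPM in Molino. No Pachón library reached the level of any other library, and the same held at 100_300um and 300um. It was lower in Pachón than in surface fish by log2 fold changes of -0.87 (SE 0.20, adjusted p = 0.00496), -1.34 (SE 0.20, adjusted p = 0.00137) and -1.09 (SE 0.21, adjusted p = 0.00306) by edgeR's quasi-likelihood test. Against Molino the elovl5 values were -1.19, -0.93 and -1.0 (adjusted p = 0.000515, 0.00741 and 0.00423, same test). No call of elovl5 was lost when a single library was left out. The call against surface fish at 40_100um and that against Molino at 100_300um were lost in 1 fit of all 36 libraries.

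The gene elovl1b, an elongase of saturated and monounsaturated chains, was lower in Pachón than in surface fish by -0.46, -0.60 and -0.56 (log2; edgeR adjusted p = 0.0487, 0.0323 and 0.0387), and lost the call at each size when any of 4 libraries was left out. The gene elovl6, which lengthens palmitate, was lower in Pachón than in Molino by -1.11 at 40_100um (edgeR adjusted p = 0.00394) and by -0.58 at 300um (edgeR adjusted p = 0.00944). ELOVL7 had the highest CPM of the family, with medians of 413 CPM in surface fish, 417 CPM in Pachón and 415 CPM in Molino at the larger sizes, and passed between no populations there. From 40um to 40_100um, elovl1a rose by 1.32, 2.19 and 0.97, elovl6 by 1.39, 2.00 and 1.72 and ELOVL7 by 1.59, 2.52 and 1.29 on the log2 scale in surface fish, Pachón and Molino, all past the threshold. In this step 55%, 57.8% and 59.4% of all genes passed. Group means of elovl5 were also higher at 40_100um in each population. Those of elovl1b went from 90.8 to 54.3, 43.7 to 41.6 and 83.7 to 68.7 CPM in the same order. Those of elovl8b went from 1.96 to 0.962, 2.53 to 2.17 and 4.55 to 1.88 CPM. Macrophage, granulocyte and granulosa markers were lower after this step, and their part was not tested. The genes elovl2 and elovl7a did not exceed 1.53 CPM in any library of the larger sizes, and elovl8b stood between 0.307 and 2.44 CPM there.

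Elongation is a cycle in which the elongase is followed by a ketoacyl reductase, a dehydratase and an enoyl reductase. The ketoacyl reductase gene hsd17b12b averaged 53.1 ± 11.4 CPM in Pachón and 37.3 ± 5.50 CPM in Molino at 40_100um, against 8.51 ± 0.809 CPM in surface fish (SD, n = 3), with no overlap between surface fish and either cave population. It was higher in Pachón by 2.55 (SE 0.20, adjusted p = 1.48e-06), 2.08 (SE 0.34, adjusted p = 0.00224) and 2.14 (SE 0.20, adjusted p = 6.21e-05) at the larger sizes (log2; edgeR). In Molino hsd17b12b was higher by 2.12 at 40_100um (adjusted p = 6.96e-06, edgeR) and by 1.14 at 300um (adjusted p = 0.00358, edgeR), and its 0.92 at 100_300um did not pass. The enoyl reductase gene tecrb was lower in Pachón than in surface fish by -1.54, -0.96 and -1.28 (log2; edgeR adjusted p = 0.000544, 0.00504 and 0.00197), at 6.33, 7.11 and 6.66 CPM against 22.7, 13.4 and 19.2 CPM at 40_100um. Molino tecrb stood at 19.6, 20.0 and 24.1 CPM there. None of these calls of hsd17b12b and tecrb was lost when a single library was left out. Of the 16 tested cycle partners and desaturases, 4, 5 and 6 were higher and 3, 1 and 4 lower in Pachón than in surface fish at the larger sizes, with list medians of 0.07, -0.04 and -0.16 (log2). Molino had 1 higher and 3 lower at 40_100um and 1 higher at 300um. At 100_300um edgeR called 0 of the 16 in Molino, with 2 at an unadjusted p under 0.05 and 0 by DESeq2.

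**Figure D4:**
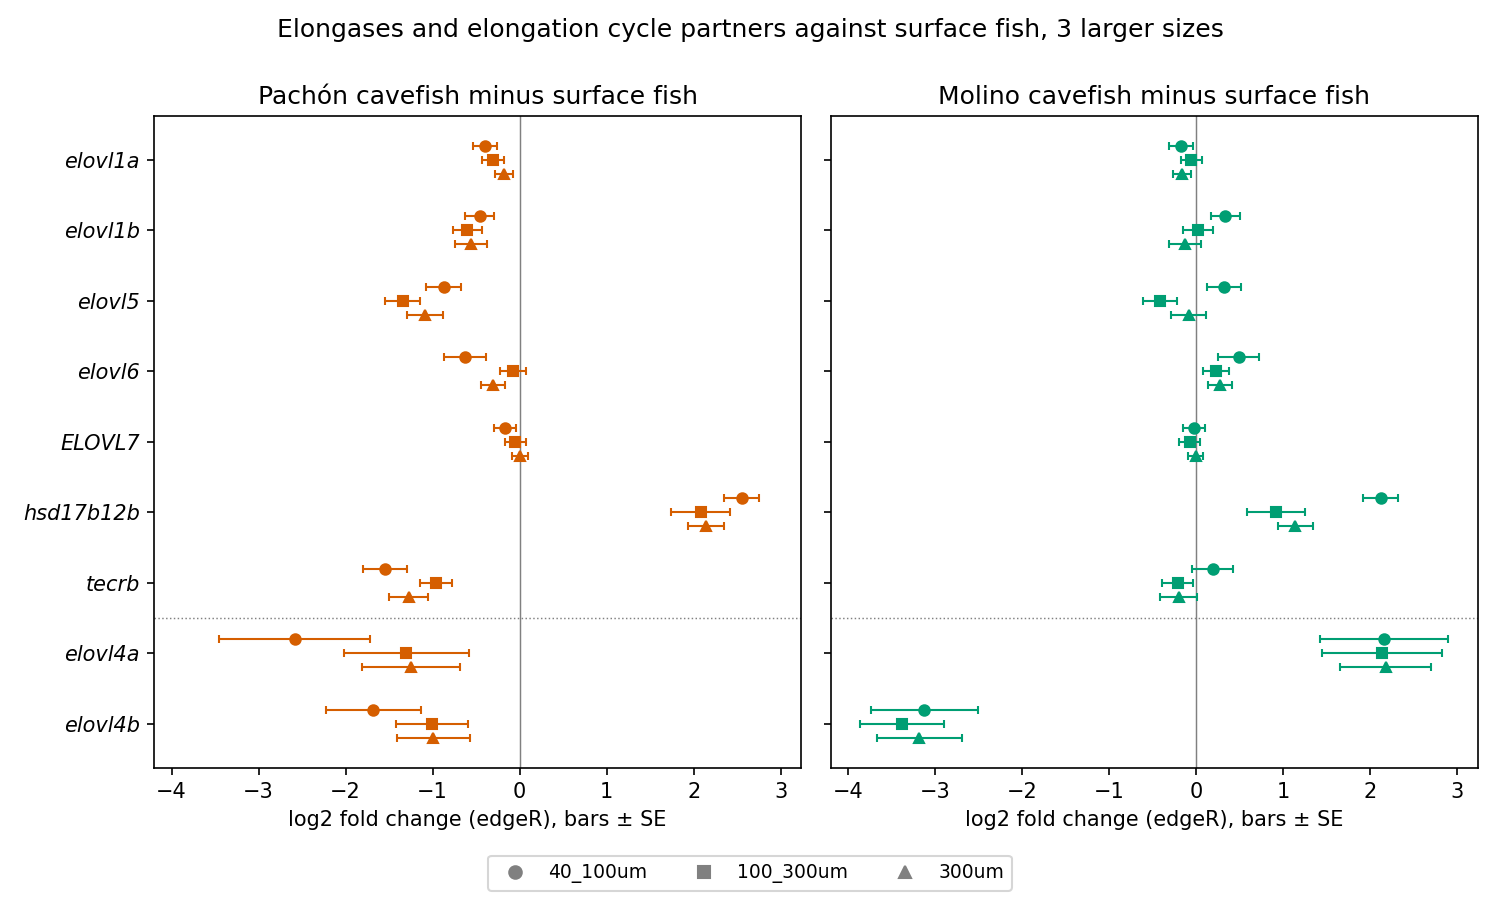
log2 fold change from surface fish (edgeR, bars ± SE) at the 3 larger sizes for 5 elongases and 2 elongation cycle partners, with elovl4a and elovl4b below the dotted line, for Pachón on the left and Molino on the right. In Pachón elovl5 and tecrb lie left of 0 at all 3 sizes and hsd17b12b to the right at 2.08 or more, while in Molino the elovl4 copies lie on opposite sides, elovl4a at 2.14 or more and elovl4b at -3.12 or less.

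Beyond elongation, 10 lists of lipid genes were counted, with 202 genes besides the 4. Of 306 list gene differences between populations that were rerun, 170 lost the call in at least 1 alternative fit. Leaving out at least 1 library lost 133 of the calls. A call given below without such a result may be among them. One kept with each library left out may still be lost in another alternative. In Pachón against surface fish 21 were higher and 26 lower of 151 tested at 40_100um, or 31.1% of the lists against 33.2% of all genes. At 100_300um the lists had 22 higher and 21 lower of 158, and at 300um 23 higher and 42 lower of 160, which is 27.2% and 40.6%, against 19.9% and 32.4% of all genes. In Molino against surface fish the shares of the lists were 27.8%, 18.4% and 18.8%, against 29.5%, 14.6% and 16.5%. The median log2 fold change of the lists at 300um was -0.19 in Pachón and -0.10 in Molino, against -0.03 and -0.02 over all genes. At 40um, 4 of 160 list genes passed in Pachón, all higher, and edgeR called 0 of 160 in Molino, with 19 at an unadjusted p under 0.05 and 9 by DESeq2.

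Droplet formation and neutral lipid synthesis, the list that holds soat2, had 4 higher and 4 lower of 20 tested genes in Pachón at 40_100um, 3 and 2 of 21 at 100_300um, and 1 and 5 of 22 at 300um. The gene dgat1b, for an enzyme of the last step of triacylglycerol synthesis, stood at 115, 87.7 and 96.7 CPM in Pachón at 40_100um against 55.6, 51.0 and 53.7 CPM in surface fish. It was higher by 0.81, 0.73 and 0.72 at the larger sizes (log2; edgeR adjusted p = 0.000597, 0.00211 and 0.000703), with no overlap. Its copy dgat1a was higher in Pachón at 40_100um by 3.79 (SE 0.53; edgeR adjusted p = 0.000169), at 8.77, 6.22 and 5.04 CPM against 0.659, 0.365 and 0.289 CPM. The acyltransferase gene agpat4 was lower in Pachón by -2.16, -1.71 and -1.56 (log2; edgeR adjusted p = 0.000213, 0.000722 and 0.000733), at 5.18, 2.49 and 3.09 CPM against 12.6, 16.6 and 16.3 CPM at 40_100um. None of these calls of dgat1b, dgat1a and agpat4 was lost when a single library was left out. In Molino fitm2, which helps droplets bud from the endoplasmic reticulum, was higher by 0.64 and 0.61 at 40_100um and 100_300um (log2; edgeR adjusted p = 0.0108 and 0.00524).

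Fatty acid uptake, binding and activation had 4 higher and 5 lower of 18 genes in Pachón at 40_100um, 6 and 2 of 20 at 100_300um and 5 and 7 of 18 at 300um, the last being 66.7% of the list against 32.4% of all genes. The transporter gene slc27a6, of the fatty acid transport protein family, stood at 17.0, 21.5 and 22.8 CPM in Pachón at 40_100um, against 0.659, 1.46 and 3.18 CPM in surface fish and 1.96, 2.72 and 1.09 CPM in Molino. Pachón lay above both other populations without overlap, by 3.45, 4.19 and 2.04 over surface fish at the larger sizes (log2; edgeR adjusted p = 0.000186, 9.48e-05 and 0.00418). The gene fabp3, for a cytoplasmic fatty acid binding protein, was higher in Pachón by 0.77 at 40_100um and 1.23 at 300um (log2; edgeR adjusted p = 0.00271 and 0.000114).

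Cholesterol, the substrate of SOAT2, is made in the cell or taken up. In the synthesis list 2 genes were higher and 3 lower of 18 in Pachón at 40_100um, 2 and 6 of 20 at 100_300um and 3 and 6 of 21 at 300um. The gene lss, for lanosterol synthase, which closes the sterol ring, stood at 6.33, 3.73 and 7.15 CPM in Pachón at 40_100um, 8.81, 13.8 and 8.03 CPM in Molino and 32.3, 24.0 and 44.3 CPM in surface fish. Both cave populations lay below every surface library, Pachón by -2.64 (SE 0.33; edgeR adjusted p = 6.91e-05) and Molino by -1.73 (SE 0.31; edgeR adjusted p = 0.0012) on the log2 scale. In Pachón lss was also lower at 100_300um and 300um, by -2.94 and -2.83 (log2; edgeR adjusted p = 0.000592 and 0.00194).

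The gene mvda, for mevalonate diphosphate decarboxylase, was lower in Molino by -1.42, -1.0 and -0.96 (log2; edgeR adjusted p = 4.6e-05, 0.00132 and 0.000377). In Pachón mvda was lower by -1.46 at 40_100um (edgeR adjusted p = 3.49e-05). The gene hmgcrb, a copy for the rate-limiting HMG-CoA reductase, went opposite ways: at 40_100um it stood at 108, 122 and 113 CPM in Molino, 47.7, 43.0 and 37.3 CPM in surface fish and 23.9, 32.0 and 26.3 CPM in Pachón. The 3 populations did not overlap, and the differences from surface fish were 1.42 in Molino (edgeR adjusted p = 2.73e-05) and -0.72 in Pachón (edgeR adjusted p = 0.00435). None of these calls of lss, mvda and hmgcrb was lost when a single library was left out.

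In the list of cholesterol uptake, trafficking and efflux, 3 genes were higher and 3 lower of 31 in Pachón at 40_100um, 2 and 3 of 31 at 100_300um and 4 and 8 of 32 at 300um. In Molino 4, 3 and 3 were higher and 7, 7 and 5 lower. The gene scarb1, for a receptor that takes cholesteryl ester from lipoproteins, stood at 141, 137 and 120 CPM in Pachón at 40_100um against 349, 265 and 252 CPM in surface fish, and was lower by -1.20 there and by -1.22 at 100_300um (log2; edgeR adjusted p = 4.41e-05 and 0.000479). The gene lcat, for the plasma enzyme that esterifies cholesterol on lipoproteins, was lower in Molino by -2.02 at 100_300um and -1.95 at 300um (log2; edgeR adjusted p = 0.00166 and 0.000839), and in Pachón by -1.37 and -1.82 at 40_100um and 100_300um (log2; edgeR adjusted p = 0.000955 and 0.00234). The sterol exporter gene abcg1 was higher in Molino by 2.33 at 100_300um and 1.89 at 300um (log2; edgeR adjusted p = 0.00124 and 0.00266), at 13.1, 15.2 and 11.7 CPM against 2.43, 2.7 and 2.46 CPM in surface fish at 100_300um. No Molino library overlapped surface fish for abcg1 or lcat at these sizes, which the rule for naming genes required.

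Very long chain fatty acids made by ELOVL4 are built into ceramides or broken down in peroxisomes. The ceramide synthesis list had 3 higher and 1 lower of 15 in Pachón at 40_100um, 1 and 1 at 100_300um and 1 and 3 at 300um, and in Molino 2 and 1, 1 and 1, and 2 and 2. In Molino the ceramide synthase gene CERS1 was lower by -2.22, -1.61 and -1.90 at the larger sizes (log2; edgeR adjusted p = 0.000222, 0.00783 and 0.00165), at 2.94, 3.18 and 5.17 CPM against 23.6, 18.8 and 10.5 CPM at 40_100um. The gene kdsr, for the reductase of the second step of sphingolipid synthesis, was higher in Molino by 1.06, 0.84 and 0.99 (log2; edgeR adjusted p = 9.65e-05, 0.00175 and 0.00237). For the peroxisomal list, 1, 3 and 2 of 19 genes were higher in Pachón and 3, 3 and 6 lower. The thiolase gene acaa1 was lower in Pachón by -3.77 at 100_300um and -3.49 at 300um (log2; edgeR adjusted p = 0.000149 and 7.05e-05), at 0.337, 0.967 and 1.1 CPM against 12.4, 9.82 and 10.2 CPM at 100_300um, while Molino stood at 10.0, 16.1 and 13.9 CPM. The lipolysis list had 0 higher and 1 lower in Pachón at each larger size, of 8, 10 and 10 genes, and in Molino 1, 0 and 0 higher and 3, 2 and 1 lower.

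Likeness was measured as the root-mean-square difference of centred log2 CPM (each gene's mean subtracted) over the 36 libraries, among 11132 genes with a symbol of their own and enough reads. Genes near to plin2 were TNFAIP3 and nfkbiaa, which encode inhibitors of NF-kB signalling, at 0.57 and 0.66, against a median of 2.90 over all genes. Nearest to soat2 were zmynd12, tpi1a and nr2e3 at 0.78, 0.84 and 0.88 (median 2.10); nr2e3, known for its role in photoreceptors, had a median of 7.21 CPM in Pachón and 0 CPM in Molino. Nearest to elovl4a were trim46b, orai1b and pvalb7 at 1.00, 1.11 and 1.13 (median 2.08), each with its highest population median in Molino. Nearest to elovl4b were uros, setd7 and mrpl14 at 0.68, 0.68 and 0.70 (median 1.40), each with its highest median in surface fish and its lowest in Molino. All these genes were picked by their likeness over the same libraries, so a shared order of populations follows from that choice.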

How the data were processed

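The authors deposited a table of raw counts per gene for all 36 libraries. Reads were processed with STAR 2.7.10b and RSEM, per the submitters' processing notes. No source used here names the genome build. The library kit marks strand, per the labels' protocols, and the strand setting of the counting was not stated. A second deposited table of normalised values was not used. Rows that name no gene, outside library sizes and tests, took on average 20.5% of reads (no feature), 12.6% (multimapping), 9.59% (unmapped) and 0.315% (ambiguous). Each size category was fitted alone for differences between populations, and all 36 libraries together for size steps and their differences between populations. Fits used edgeR 4.0.16 with limma 3.58.1 in R 4.3.3: TMM scaling, filterByExpr with a minimum count of 10, robust quasi-likelihood tests and Benjamini-Hochberg adjustment over the 15917, 14377, 15494 and 15214 genes tested in order of size, and 18259 for steps. The threshold was an adjusted p of 0.05. Only the fit of Pachón against surface fish at 300um was tested on simulated data, with 1 scatter (dispersion) of 0.053 for all genes. The common dispersion was 0.246 at 40um and 0.129 over all 36 libraries, and those fits were not tested in this way. Alternatives used other scaling, no filter, DESeq2 1.42.0, other sample sets, a replicate block and each library left out. No libraries were duplicates of each other.

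The 4 genes and all lists were chosen with earlier results of these data known. Named were the 4 genes and all elongases and perilipins. Of the other lists, at most 3 genes past the threshold were named per direction and contrast, those with the largest fold changes among genes whose groups did not overlap. The genes nearest to each of the 4 were the 3 with the smallest root-mean-square difference, of which 1 is not reported here. Zero counts were given a limit of 3 reads, and limits and 95% intervals cover counting error only. The fold bounds of soat2 cover it in Molino alone, since the surface or Pachón reads were taken as counted. Same-numbered libraries of neighbouring sizes were correlated in their deviations from group means. Every pair exceeded 0.1 in 8 of 9 steps, and in 8 of 9 every library was closest to its own number. The exception was Molino from 40_100um to 100_300um, with a lowest r of 0.0229. Numbers were therefore taken to pair libraries across sizes within a population, which rests on the labels' numbers and this hint from the data. The main step fits did not use this pairing, so their step values and SE ignore it. It enters only in the alternative with the replicate block.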

Additional observations from a re-analysis of the deposited data

How the results depend on the processing

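Over the 12 population contrasts, 22 of 48 values of the 4 genes passed the threshold, and 18 to 30 did under the other scalings, filters, tools and sample sets (20 to 24 with a library left out). The 18 came with only the libraries compared, where soat2 was not tested between Molino and surface fish at the larger sizes. With the replicate block the number was 23, adding plin2 for Pachón over surface fish and soat2 for Pachón over Molino at 40um and losing elovl4a for Molino over surface fish at 300um. Numbers were not taken to pair libraries between populations: 15 of 36 same-numbered pairs had a correlation over 0.1. At 40um the pairs of library 1 stood at r = 0.71, 0.69 and 0.67 (surface with Pachón, surface with Molino, Pachón with Molino). Those of library 2 were 0.20, -0.04 and -0.19, and those of library 3 were -0.15, 0.15 and 0.57. For list genes 421 population calls became 357 to 492. Size steps of the 4 genes passed 4 times, 8 with the replicate block and 3 to 5 with a library left out. List differences of steps between populations passed 28 times, 50 with the replicate block, 2 when only the libraries compared were fitted, and 17 (without surface library 1 at 40_100um) to 47 (without surface library 2 at 40um) with a library left out. For the 4 genes this number was 0 with every library left out in turn. The cause was not tested.

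Without surface library 2 at 40um, the surface step from 40um to 40_100um of soat1 reversed, from -2.42 to 0.088 for ENSAMXG00000013993 and from -2.29 to 1.06 for ENSAMXG00000039298 (log2). With a library left out these values lay between -2.83 and 0.088 and between -2.84 and 1.06. With 5 reads added in place of 0.5, the log2 ratio of elovl4a to elovl4b was -0.87 in Pachón at 40um and 3.59, 5.81, 5.92 and 5.56 in Molino in order of size, because few reads are then outweighed by those added. Leaving out 3 libraries with raised markers of other cells (surface library 1 at 100_300um, surface library 2 and Molino library 3 at 300um), chosen after seeing the data, gave 24 and 435 population calls. The soat2 bounds with a library left out were also added after seeing the data. Library totals moved the median of all genes by -0.37 to 0.11 (log2) between populations and by up to 0.25 over steps, and DESeq2 size factors moved it by -0.20 to 0.06 over steps. Of 306 named list differences, 136 kept the call under every alternative and 170 lost it under at least 1. Leaving out a library lost 133 of the calls, and 0 reversed. Low counts limit soat2, and elovl4b in Molino.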

Other observations

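The genes on either side of soat2 and elovl4a in the AstMex3_surface annotation, used only for gene order, include sp7 and CDKAL1, which passed the threshold in Molino at each larger size. Both were chosen after their values were seen, and neither was rerun under the alternatives. The gene sp7, 2 genes from soat2, encodes a transcription factor of bone formation. It averaged 65.8 ± 6.70 CPM in Molino at 40_100um (SD, n = 3), against 6.76 ± 4.29 CPM in surface fish, and was higher by 3.27, 4.24 and 3.84 at the larger sizes (log2; edgeR adjusted p = 1.83e-05, 8.88e-06 and 1.55e-05). No Molino library overlapped surface fish for sp7 at any of these sizes. In Pachón sp7 was higher by 1.29 at 100_300um and 1.28 at 300um (edgeR adjusted p = 0.0105 and 0.00717). Of the 6 neighbours of soat2, 5 were tested, and sp7 was the 1 that was higher in Molino at each larger size. The adjacent gene igsf8 was lower at 300um by -0.87 in Pachón and -0.81 in Molino (edgeR adjusted p = 0.0197 and 0.0447), and ddit3 was higher in Pachón at 40_100um by 1.89 (edgeR adjusted p = 0.0466). At the larger sizes dctn2 and mars1 passed in neither cave population.

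The gene CDKAL1, 3 genes from elovl4a, encodes a tRNA-modifying enzyme. It averaged 54.8 ± 7.84 CPM in Molino at 40_100um (SD, n = 3), against 145 ± 8.14 CPM in surface fish, and was lower by -1.41, -1.30 and -1.38 at the larger sizes (log2; edgeR adjusted p = 5.07e-06, 0.000103 and 3.73e-05), without overlap. In Pachón CDKAL1 was lower by -0.49, -0.58 and -0.44 (edgeR adjusted p = 0.00935, 0.00967 and 0.0143). Other neighbours of elovl4a also passed in Molino: ttk was lower at 40_100um by -0.51 and bckdhb at 300um by -0.37 (edgeR adjusted p = 0.00675 and 0.039). Of the 5 tested neighbours of plin2, 4 were lower in Pachón at 40_100um, 1 at 100_300um and 2 at 300um, and in Molino 1 was higher and 1 lower at 40_100um. Of the 4 tested neighbours of elovl4b at 40_100um, 1 was higher and 1 lower in Pachón and 1 higher in Molino. Beside all these neighbour counts, 33.2%, 19.9% and 32.4% of all genes passed for Pachón against surface fish at the larger sizes. For Molino the shares were 29.5%, 14.6% and 16.5%. The deposited build was not compared with this annotation.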
